A study of Homo sapiens with 6 samples.

Results

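Solute carrier genes encode membrane proteins that move amino acids, sugars, metal ions, nucleotides and other small molecules into cells and between compartments. Their members were taken by symbol: protein-coding genes of GENCODE release 29 whose name starts with SLC, a family number, the letter A and a member number. GENCODE 29 holds 340 such genes. Of these, 165 had a transcript in the expression tables, out of 11387 genes in all, and 146 of the 165 passed the filter on low values and were tested. The other 175 were not analysed here. The 5 genes SLC2A4RG, SLC4A1AP, SLC7A6OS, SLC9A3R1 and SLC9A3R2 fit the naming rule but encode regulators or neighbours of a transporter and were kept as a group of their own.

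RNA was sequenced from 92.1, a human ocular melanoma cell line, in 6 libraries. In 3 of them, called shALKBH3, the gene ALKBH3 was knocked down in a derivative of the line. The 3 others, called NC, carry a wild-type genotype label. The labels do not say whether NC cells hold a control hairpin, how many clones were used or whether replicates were grown separately. The p-values therefore rest on the variation among these 3 libraries a group, part or all of which may be technical. ALKBH3 is a demethylase of alkylated DNA and of 1-methyladenosine in RNA, and the comparison asks how expression differs after its knockdown.

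The family number of a solute carrier broadly gives its substrate. SLC1, SLC7 and SLC38 proteins carry amino acids, and several SLC7 proteins work only as a pair with the heavy chain SLC3A2. SLC2 proteins carry glucose and related sugars, SLC25 proteins exchange metabolites across the inner mitochondrial membrane, SLC39 proteins bring zinc into the cytosol and SLC30 proteins remove it. Tumour cells are known for high levels of glucose, glutamine, large neutral amino acid and lactate transporters.

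ALKBH3 itself was at 3.29, 3.60 and 4.24 FPKM (fragments scaled to transcript length and library size, summed over the transcripts of a gene) in shALKBH3, against 10.5, 10.6 and 9.19 FPKM in NC, and it fell by 1.24 on the log2(FPKM + 1) scale (adjusted p = 0.0079). The call was lost without NC replicate 1, at an adjusted p of 0.051. Listed FPKM summed to between 326875 and 333987 in shALKBH3 libraries and between 340950 and 361268 in NC libraries. Sequencing depth is unknown, because the tables hold no counts. The libraries are of bulk RNA, so fewer expressing cells and less RNA per cell cannot be told apart. Of 6 melanocyte markers only MITF has a listed transcript, at 10.3 to 14.0 FPKM in shALKBH3 and 3.29 to 9.53 FPKM in NC, so the labelled cell type could not be checked on PMEL, MLANA, TYR, DCT or SOX10. The part of MITF in the results was not tested. Of 4 fibroblast and 3 leukocyte markers, COL1A1 (19.9 to 24.6 FPKM in shALKBH3, 19.0 to 24.0 FPKM in NC) and COL1A2 are listed. COL1A2 was at 0.628, 0.308 and 0.456 FPKM in shALKBH3 and at 7.22, 0.473 and 0.783 FPKM in NC, so NC replicate 1 stands apart from the other libraries.

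Most solute carrier genes did not pass the test. Of the 146 tested, 2 were called higher in shALKBH3, SLC16A4 and SLC41A2, and 0 were called lower, which is 1.37% at an adjusted p under 0.05 (limma). Over all 10475 genes tested, 1.76% were called, 1.28% higher and 0.477% lower, so the share among the transporters was near that background. At an unadjusted p under 0.05, 10 members were higher and 14 were lower, against a background of 8.98% higher and 8.15% lower. In 16 members every shALKBH3 library lay above every NC library and in 21 every one lay below, where the background is 12.9% above and 12% below. The median log2 difference was 0.01 over the members and -0.01 over all genes. The 19 members under the filter averaged less than 1 FPKM over the 6 libraries.

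The most abundant members over the 6 libraries were SLC25A5 (mean 233 FPKM), SLC25A6 (199 FPKM) and SLC25A3 (109 FPKM), followed by the lactate exporter SLC16A3 (80.3 FPKM), the glucose transporter SLC2A1 (75.8 FPKM) and the glutamine carrier SLC1A5 (69.0 FPKM). All members together summed to 2052, 1862 and 1959 FPKM in shALKBH3 and to 2128, 2169 and 2309 FPKM in NC, where the sums over all listed transcripts were also lower in every shALKBH3 library. As a share of the FPKM of all genes, members made up 0.617, 0.570 and 0.587% in shALKBH3 and 0.593, 0.637 and 0.640% in NC, which overlap. The melanosome transporters SLC45A2 and SLC24A5 were not analysed here, nor were SLC15A3 and SLC25A31 of the lists described.

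**Figure D1:**
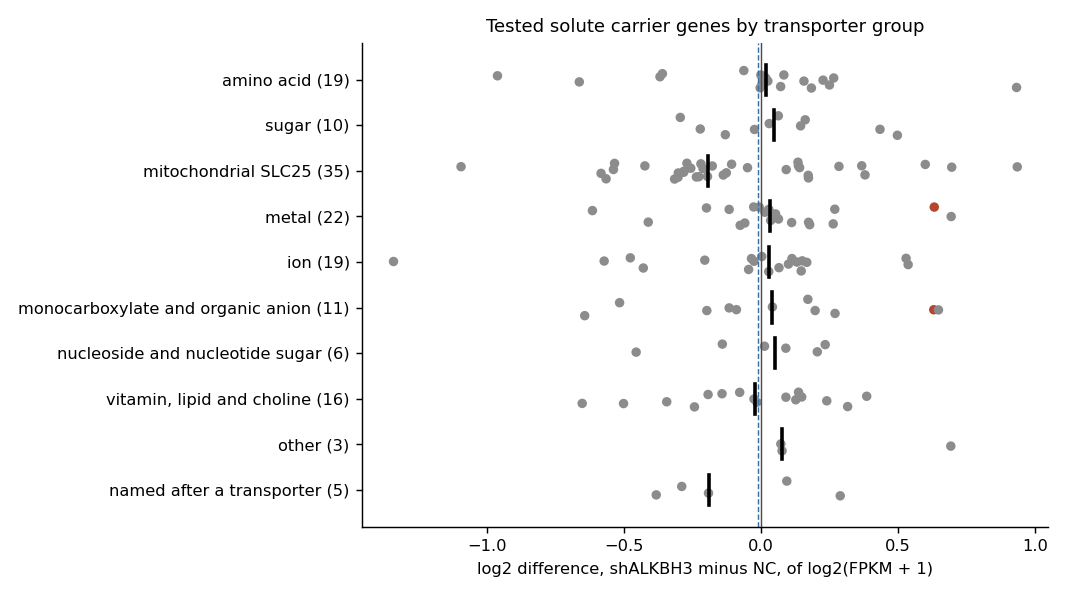
Log2 difference, shALKBH3 minus NC, of log2(FPKM + 1) for each of the 146 tested genes, by transporter group with the number tested in parentheses. Black bars are group medians, the dashed line is the median of all tested genes at -0.01, and the 2 genes called higher (red) are SLC41A2 among metal carriers and SLC16A4 among monocarboxylate carriers, both at 0.63.

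The promoters of both called genes are shown together with those of SLC3A2 and SLC7A5, the heavy and light chain of one amino acid exchanger, whose values lay below NC. Each is the RefSeq window from 250 bases before to 50 bases after the annotated start (GRCh38.p14), printed along the gene's strand. SLC16A4 is at chr1:110390977-110391276 on the minus strand, SLC41A2 at chr12:104958697-104958996 on the minus strand, SLC3A2 at chr11:62881449-62881748 on the plus strand and SLC7A5 at chr16:87869458-87869757 on the minus strand. Capitals mark a match, on either strand, to a core of the C/EBP-ATF response element that ATF4 binds (TGATGNAA, or its reverse complement), to a core of the interferon response element (GAAA, any 2 bases, GAAA) or to the E-box of MYC, TFE3 and related factors (CACGTG).
SLC16A4: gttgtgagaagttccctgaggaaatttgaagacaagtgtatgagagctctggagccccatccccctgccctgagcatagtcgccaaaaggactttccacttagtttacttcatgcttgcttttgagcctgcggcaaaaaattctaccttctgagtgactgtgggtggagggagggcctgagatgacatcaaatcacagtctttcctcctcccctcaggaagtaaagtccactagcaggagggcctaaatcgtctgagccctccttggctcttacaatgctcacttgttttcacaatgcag
SLC41A2: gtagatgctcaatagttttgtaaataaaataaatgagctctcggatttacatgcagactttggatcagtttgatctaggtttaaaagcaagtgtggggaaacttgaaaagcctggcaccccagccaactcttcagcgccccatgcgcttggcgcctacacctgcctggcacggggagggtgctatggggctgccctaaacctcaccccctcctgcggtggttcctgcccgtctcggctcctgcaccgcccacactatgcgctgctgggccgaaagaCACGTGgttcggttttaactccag
SLC3A2: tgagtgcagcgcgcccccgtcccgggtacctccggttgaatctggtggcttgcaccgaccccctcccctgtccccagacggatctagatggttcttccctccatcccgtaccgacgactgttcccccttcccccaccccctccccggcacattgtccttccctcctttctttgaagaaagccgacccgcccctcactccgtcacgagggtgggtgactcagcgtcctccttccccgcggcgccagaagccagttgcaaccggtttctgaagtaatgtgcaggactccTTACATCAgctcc
SLC7A5: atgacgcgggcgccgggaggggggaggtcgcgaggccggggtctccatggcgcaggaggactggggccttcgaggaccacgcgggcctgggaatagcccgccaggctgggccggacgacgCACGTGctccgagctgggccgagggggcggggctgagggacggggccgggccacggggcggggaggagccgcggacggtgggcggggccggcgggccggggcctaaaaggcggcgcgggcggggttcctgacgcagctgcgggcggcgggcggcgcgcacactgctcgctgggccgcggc
SLC41A2 has an E-box whose first base is at position 27 after the start and SLC7A5 has one whose first base is at position -130. SLC3A2 has the ATF4-type core on the opposite strand, printed along the gene's strand as TTACATCA from position 38. SLC16A4 holds none of these letters.

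Windows were matched for 131 of the 165 members and 120 of the tested ones. The ATF4-type core was in 7 of those 120 (5.83%), against 3.67% of all 27305 windows, and the E-box in 18 (15%), against 7.43%. The interferon core was in 1, SLC2A12 (0.833%), against 3.65%. The 27305 windows were not limited to genes tested here, so the shares come from unlike sets of genes. Median log2 differences of members were -0.06 with the ATF4-type core and 0.01 without it, and -0.02 with the E-box and 0.01 without it. These matches describe letters in a window and not bound sites.

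SLC16A4, a member of the monocarboxylate transporter family, was at 14.3, 15.7 and 13.9 FPKM in shALKBH3 and at 9.24, 9.17 and 8.86 FPKM in NC. The groups were well apart, with the lowest shALKBH3 library above the highest NC library. SLC16A4 rose by 0.63 on the log2 scale (SE 0.086, adjusted p = 0.029), or 60.9% in mean FPKM. Of its 5 listed transcripts, 4 lay above NC in every library, with the largest, SLC16A4-206, at 7.03, 6.36 and 5.50 FPKM in shALKBH3 and 3.20, 3.20 and 2.86 FPKM in NC. SLC41A2, which carries magnesium, was at 7.94, 8.51 and 8.62 FPKM in shALKBH3 and at 5.08, 5.30 and 4.75 FPKM in NC. It rose by 0.63 (SE 0.093, adjusted p = 0.036), or 65.8%, and its groups did not overlap either. Both calls were lost when any 1 of the 6 libraries was left out, with adjusted p of 0.075 to 0.13 for SLC16A4 and 0.073 to 0.16 for SLC41A2, and also when each gene was represented by its most abundant transcript (0.060 and 0.17).

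Among 22 tested metal carriers, SLC41A2 was the 1 called, an unadjusted p under 0.05 was reached by 3 above NC and 0 below, and the median log2 difference was 0.03. No carrier of the group had all shALKBH3 libraries below NC, and 4 of 22 (18.2%) had all above. Over all genes tested, 12% lay below and 12.9% above in every library. Only 3 of the 22 have a most abundant transcript under 2000 nucleotides. Among all genes at or over 2000 nucleotides, 9.08% lay below and 16.1% above, so the share above NC was near that of long genes. SLC39A9, a zinc importer of the secretory pathway and cell surface, was at 18.8, 17.1 and 20.8 FPKM in shALKBH3 and at 11.01, 12.8 and 10.2 FPKM in NC. All shALKBH3 libraries lay above NC, and the difference of 0.69 (SE 0.118) just missed the threshold (adjusted p = 0.054). Its adjusted p was 0.018 to 0.049 under 5 other settings, among them quantile normalization and a minimum mean of 5 FPKM, but 0.066 to 0.19 with 1 library left out. With the most abundant transcript alone the difference was 0.34 (adjusted p = 0.51).

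SLC39A6, a zinc importer of the plasma membrane, was at 26.4, 28.8 and 27.5 FPKM in shALKBH3 and 22.5, 23.9 and 21.7 FPKM in NC, apart in every library (log2 difference 0.27, adjusted p = 0.19). The zinc exporter SLC30A1 was also apart, by a smaller step, at 15.9, 17.6 and 17.6 FPKM in shALKBH3 and 15.4, 14.8 and 14.7 FPKM in NC (log2 difference 0.17, adjusted p = 0.34). SLC39A7, which releases zinc from the endoplasmic reticulum, averaged 41.5 ± 4.79 FPKM in shALKBH3 and 34.3 ± 2.94 FPKM in NC (SD, n = 3 each) and overlapped. SLC30A9, a mitochondrial zinc carrier, averaged 26.3 ± 2.05 FPKM in shALKBH3 and 25.5 ± 0.709 FPKM in NC, with a log2 difference of 0.04 that turned to -0.13 after a correction for transcript length and GC content. SLC39A1, a zinc importer of the cell surface, was spread widely within shALKBH3, at 10.7, 24.4 and 32.2 FPKM, against 29.7, 33.2 and 32.8 FPKM in NC (log2 difference -0.62, adjusted p = 0.44). Without shALKBH3 replicate 1 that difference was -0.18, and without shALKBH3 replicate 3 it was -0.93.

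Mitochondrial SLC25 carriers were the group with the lowest median of the 4 the comparison was laid out for, at -0.20 over 35 tested members, and none was called. Of the 35, 23 had a negative log2 difference, 5 below and 1 above NC had an unadjusted p under 0.05, and 8 lay below and 2 above NC in every library. Over all genes tested, 8.15% were lower and 8.98% higher at that p. Among all genes under 2000 nucleotides, 18.9% lay below and 5.27% above NC in every library, against 12% and 12.9% of all genes tested. The most abundant transcript was that short in 13 of the 35 carriers, of which 5 lay below and 1 above. Of the 22 longer carriers, 3 lay below and 1 above. The shares of all genes at or over 2000 nucleotides were 9.08% below and 16.1% above. The median of the SLC25 carriers was -0.069 without NC replicate 3 and -0.10 without shALKBH3 replicate 3. The carriers with the most RNA were among those below. SLC25A5, an ADP/ATP carrier, was at 212, 196 and 188 FPKM in shALKBH3 and 273, 250 and 277 FPKM in NC, every shALKBH3 library lower (log2 difference -0.42, SE 0.077, adjusted p = 0.065). SLC25A6, another ADP/ATP carrier, was at 186, 145 and 155 FPKM in shALKBH3 and 222, 219 and 265 FPKM in NC (log2 difference -0.54, adjusted p = 0.11). SLC25A3, which brings phosphate into the matrix, was at 91.0, 87.7 and 83.7 FPKM in shALKBH3 and 121, 122 and 148 FPKM in NC (log2 difference -0.57, SE 0.098, adjusted p = 0.057). The groups of all 3 genes were apart, and none passed the threshold.

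These 3 carriers made up 23.8, 23.0 and 21.8% of the FPKM of all members in shALKBH3 and 28.98, 27.2 and 29.9% in NC. All SLC25 genes together made up 38.4, 37.4 and 35.8% in shALKBH3 and 42.5, 41.1 and 44.0% in NC. Both shares were lower in every shALKBH3 library. The 3 carriers have processed pseudogenes of near-identical sequence, so their levels are uncertain where fragments were divided among copies. SLC25A4, the ADP/ATP carrier of muscle and heart, was far lower in level, at 8.43, 6.73 and 7.74 FPKM in shALKBH3 and 5.41, 6.85 and 7.87 FPKM in NC, which overlap (log2 difference 0.17, adjusted p = 0.59).

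SLC25A10, the dicarboxylate carrier, was at 4.89, 4.35 and 5.64 FPKM in shALKBH3 and 7.48, 8.04 and 8.17 FPKM in NC, without overlap (log2 difference -0.58, adjusted p = 0.079). SLC25A39, which carries glutathione, averaged 21.0 ± 2.57 FPKM in shALKBH3 and 30.98 ± 4.50 FPKM in NC (SD, n = 3 each), also without overlap (log2 difference -0.53, adjusted p = 0.14). SLC25A51, the NAD carrier, lay above NC in all libraries, at 8.82, 7.10 and 9.61 FPKM in shALKBH3 and 6.78, 7.01 and 5.31 FPKM in NC (log2 difference 0.37, adjusted p = 0.29). SLC25A36, a pyrimidine nucleotide carrier and the fourth most abundant of the group, overlapped, at 30.5 ± 0.870 FPKM in shALKBH3 and 27.0 ± 2.87 FPKM in NC. The iron carrier SLC25A28, listed as interferon-linked, also overlapped, at 19.2, 14.1 and 27.3 FPKM in shALKBH3 and 16.0, 16.5 and 20.9 FPKM in NC.

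Transcript length moved with these differences. SLC25 carriers whose most abundant transcript was under 2000 nucleotides had a median of -0.28, with 10 of 13 negative, and the longer ones had a median of -0.12, with 13 of 22 negative. Over all genes the medians were -0.13 under 2000 nucleotides (70.3% of 3077 negative) and 0.04 at or over it (43.4% of 7398 negative). Across genes, Spearman's rho of the log2 difference with length was 0.44 over the 35 SLC25 carriers, 0.31 over the 146 members and 0.34 over all 10475 genes, and with GC content it was -0.37, -0.39 and -0.31 in the same order. Genes of one library pair share its depth and base composition and are not independent, so no p is given. With each library corrected for length and GC content, SLC25A3, SLC25A5 and SLC25A6 passed the threshold (adjusted p 0.032, 0.044 and 0.028), with log2 differences of -0.50, -0.34 and -0.38. The share of all genes called was 2.42% with that correction and 1.76% in the main test. With the replicate number also in the limma model, none of the 3 passed (adjusted p 0.18, 0.17 and 0.16).

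**Figure D2:**
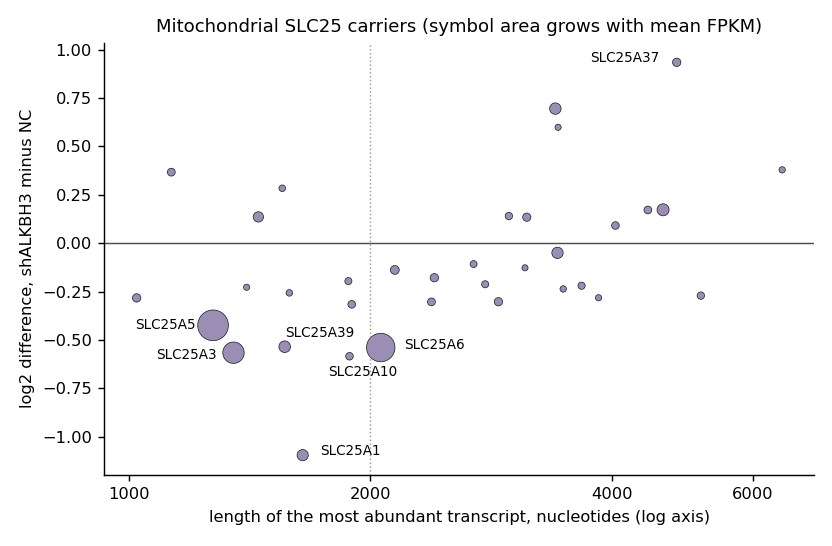
Log2 difference, shALKBH3 minus NC, of the 35 tested SLC25 carriers against the length of their most abundant transcript (log axis, nucleotides), with symbol area growing with mean FPKM and a dotted line at 2000 nucleotides. The most abundant carriers SLC25A5, SLC25A6 and SLC25A3 sit at -0.42, -0.54 and -0.57, and left of the line 10 of 13 carriers are below 0.

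Several SLC25 genes with wide differences were also spread widely within a group. SLC25A1, the citrate carrier, was at 14.4, 11.1 and 12.1 FPKM in shALKBH3 and 10.3, 31.6 and 63.9 FPKM in NC, so the NC libraries alone span the range (log2 difference -1.09, adjusted p = 0.40). SLC25A37, which imports iron into mitochondria, was at 17.8, 16.9 and 5.46 FPKM in shALKBH3 and 6.16, 4.85 and 6.46 FPKM in NC. Its shALKBH3 replicate 3 lay among the NC values (log2 difference 0.93, adjusted p = 0.32), and without that library it was the 1 solute carrier gene called. SLC25A24, an ATP-magnesium and phosphate carrier, was at 30.5, 27.2 and 31.1 FPKM in shALKBH3 and 30.2, 25.7 and 7.08 FPKM in NC, with 1 NC library far below the rest. SLC25A46, a protein of the outer mitochondrial membrane, was at 5.11, 4.73 and 7.11 FPKM in shALKBH3 and 18.5, 5.10 and 3.48 FPKM in NC, with 1 NC library far above the rest of its group. Among 83 members with a mean of at least 5 FPKM, 7 differed over 3-fold within a group and 55 stayed under 1.5-fold.

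Amino acid carriers had a median of 0.02 over 19 tested members, with 12 positive and 7 negative, and none was called. An unadjusted p under 0.05 was reached by 3 below NC and 1 above, and the same numbers held for members whose libraries did not overlap. Over all genes tested the shares were 8.15% and 8.98% at that p, and 12% and 12.9% without overlap. The 3 below were SLC3A2, SLC7A5 and SLC1A5, which a list of genes linked to the stress factor ATF4 also holds. SLC3A2, the heavy chain that takes SLC7 light chains to the cell surface, was at 21.0, 17.99 and 17.8 FPKM in shALKBH3 and 35.8, 30.1 and 26.3 FPKM in NC. Every shALKBH3 library was lower, and the log2 difference was -0.66 (SE 0.134, adjusted p = 0.085). It is a sum of 10 transcripts between which the libraries differed: SLC3A2-208 was at 0.986, 0.641 and 0.663 FPKM in shALKBH3 and at 17.9, 11.9 and 0.812 FPKM in NC, and with the most abundant transcript alone the difference turned to 1.74.

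SLC7A5, the light chain for leucine and other large neutral amino acids, was at 17.99, 13.8 and 14.4 FPKM in shALKBH3 and 18.5, 19.5 and 22.4 FPKM in NC. The groups were narrowly apart (log2 difference -0.37, adjusted p = 0.24). SLC1A5, the main glutamine importer of many tumour cells, was at 51.8, 70.5 and 59.1 FPKM in shALKBH3 and 72.4, 74.3 and 85.7 FPKM in NC, again narrowly apart (log2 difference -0.36, adjusted p = 0.25). SLC7A11, the cystine light chain that pairs with SLC3A2, overlapped between the groups, at 8.53, 9.85 and 9.82 FPKM in shALKBH3 and 9.43, 10.7 and 8.10 FPKM in NC. Its log2 difference was 0.00 (SE 0.125, adjusted p = 0.99), and -0.24 after the length and GC correction. SLC7A6, a further light chain whose gene overlaps SLC7A6OS on the other strand, was at 5.27, 0.398 and 1.35 FPKM in shALKBH3 and 4.52, 3.71 and 4.84 FPKM in NC, with the first shALKBH3 library above all others (log2 difference -0.96, adjusted p = 0.40).

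Of the 9 genes in the ATF4-linked list, 6 were tested, with a median of -0.21. None was called, and 3 lay below NC with an unadjusted p under 0.05. These are the same SLC3A2, SLC7A5 and SLC1A5 already counted among the amino acid carriers. Over all genes tested 8.15% were lower at that p, and the median was -0.01. The cationic carrier SLC7A1 had a log2 difference of -0.06 and the serine and alanine carrier SLC1A4 one of 0.25, and both overlapped. SLC38A2 and SLC6A9 were under the filter and SLC7A3 was not analysed here. ATF4 RNA was at 191, 203 and 213 FPKM in shALKBH3 and 203, 196 and 235 FPKM in NC, which overlap.

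SLC38A9, an arginine sensor of the lysosome that signals to mTORC1, was the amino acid carrier furthest above NC, at 4.94, 5.85 and 5.72 FPKM in shALKBH3 and 2.34, 3.48 and 1.64 FPKM in NC. The groups were apart, with a log2 difference of 0.93 (SE 0.207, adjusted p = 0.10). It is a sum of 5 transcripts, each of which overlapped between the groups. The abundant neutral amino acid carriers SLC38A5 (29.1 ± 6.06 FPKM in shALKBH3, 24.4 ± 2.57 FPKM in NC) and SLC38A1 (24.5 ± 0.685 FPKM in shALKBH3, 24.7 ± 3.11 FPKM in NC; SD, n = 3 each) overlapped.

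**Figure D3:**
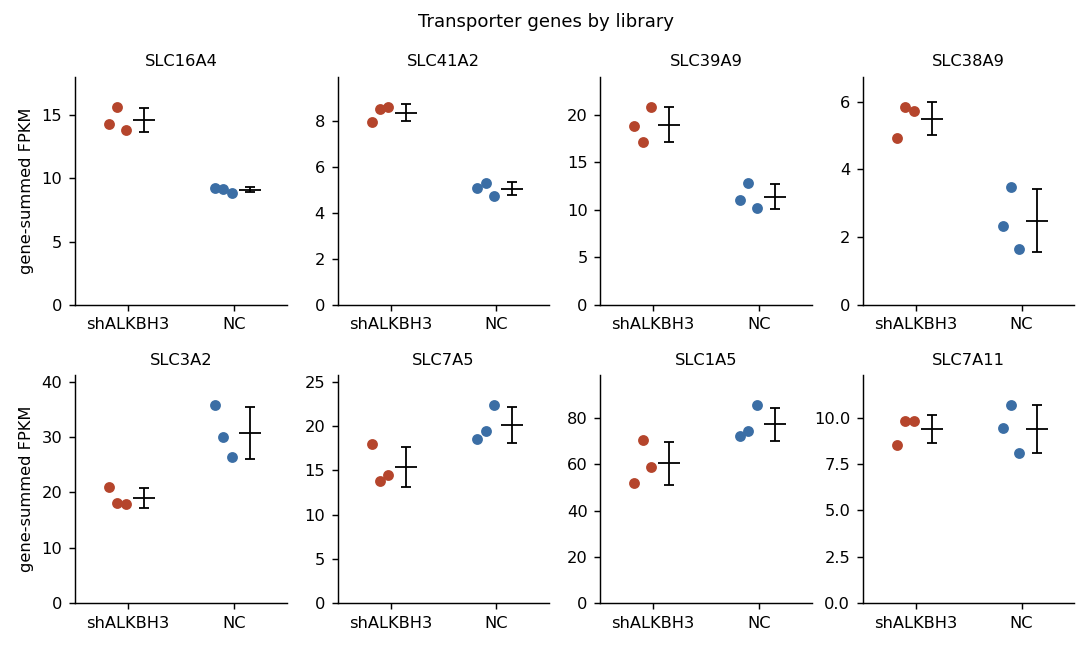
Gene-summed FPKM by library for 4 genes above NC (top row, SLC16A4, SLC41A2, SLC39A9 and SLC38A9) and 4 amino acid carriers (bottom row), shALKBH3 in red left of NC in blue, with the mean and SD of 3 libraries beside the points. The groups are apart in every panel except that of SLC7A11, where shALKBH3 runs from 8.53 to 9.85 FPKM and NC from 8.10 to 10.7 FPKM.

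No sugar carrier passed the test. Over 10 tested members the median was 0.05, an unadjusted p under 0.05 was reached by 1 above NC and 0 below, and 0 were called. At that p, 8.98% of all genes tested were higher and 8.15% lower, and 1.76% were called. SLC2A1, the basal glucose transporter and the most abundant of the group, was at 81.2, 68.3 and 76.4 FPKM in shALKBH3 and 79.6, 72.3 and 77.4 FPKM in NC, with nearly the same mean (log2 difference -0.02, SE 0.089, adjusted p = 0.90). SLC2A12, another glucose transporter, was at 10.4, 9.64 and 9.24 FPKM in shALKBH3 and 6.56, 7.73 and 5.72 FPKM in NC, apart in every library (log2 difference 0.50, adjusted p = 0.14). SLC2A3, the high-affinity glucose transporter of neurons, was at 7.82, 9.63 and 6.32 FPKM in shALKBH3 and 2.66, 5.07 and 11.5 FPKM in NC, where the NC libraries enclose the others (log2 difference 0.43, adjusted p = 0.64). That difference was 0.016 without NC replicate 1 and 0.90 without NC replicate 3.

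The myo-inositol carrier SLC5A3 averaged 4.48 ± 0.291 FPKM in shALKBH3 and 3.92 ± 0.604 FPKM in NC (SD, n = 3 each) and overlapped; it shares its locus with MRPS6, and fragments of the 2 genes may not be told apart. SLC50A1 was at 6.11, 3.09 and 3.12 FPKM in shALKBH3 and 9.22, 1.66 and 2.26 FPKM in NC, high in replicate 1 of both groups, and the sign of its difference of 0.14 turned under 4 settings. SLC37A2, a sugar phosphate carrier, averaged 1.41 ± 0.377 FPKM in shALKBH3 and 1.82 ± 0.557 FPKM in NC (log2 difference -0.22, adjusted p = 0.59).

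Lactate carriers were abundant in both groups. SLC16A3, the lactate exporter linked to hypoxia, was at 83.1, 49.8 and 66.7 FPKM in shALKBH3 and 85.5, 87.6 and 109 FPKM in NC, with the first shALKBH3 library close under NC (log2 difference -0.52, adjusted p = 0.27). Without shALKBH3 replicate 2 the difference was -0.33. SLC16A1, which moves lactate both ways, averaged 52.6 ± 3.53 FPKM in shALKBH3 and 51.1 ± 3.36 FPKM in NC (SD, n = 3 each) and overlapped. Their chaperone BSG also overlapped, at 306, 197 and 216 FPKM in shALKBH3 and 268, 225 and 328 FPKM in NC. Of the 3 hypoxia-linked transporters, SLC2A1, SLC2A3 and SLC16A3, 0 were called and 1, SLC16A3, had an unadjusted p under 0.05. The background over all genes tested is 8.98% higher and 8.15% lower at that p.

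In the monocarboxylate and organic anion group as a whole, 11 were tested, SLC16A4 was the 1 called, and 2 stood above and 2 below NC with an unadjusted p under 0.05. The shares over all genes tested were 8.98% higher and 8.15% lower at that p, and 1.76% called. SLC22A5, which imports carnitine, was low, at 1.16, 0.788 and 0.843 FPKM in shALKBH3 and 2.09, 1.33 and 2.77 FPKM in NC, apart by a small margin (log2 difference -0.64, adjusted p = 0.21).

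Of the remaining groups, none had a called member. In 6 nucleoside and nucleotide sugar carriers the median was 0.05, with an unadjusted p under 0.05 for 1 member above and 1 below NC. SLC29A1, the equilibrative nucleoside carrier, was at 28.0, 22.5 and 22.4 FPKM in shALKBH3 and 31.5, 34.2 and 35.0 FPKM in NC, apart in all libraries (log2 difference -0.46, adjusted p = 0.13). SLC35A1, which takes CMP-sialic acid into the Golgi, was at 9.69, 8.87 and 8.84 FPKM in shALKBH3 and 7.76, 7.78 and 7.31 FPKM in NC, apart the other way (log2 difference 0.23, adjusted p = 0.26). SLC35A4, the next by p, overlapped, with a log2 difference of -0.14.

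In 16 vitamin, lipid and choline carriers the median was -0.02, and 2 were lower at an unadjusted p under 0.05, the fatty acid transport proteins SLC27A1 (log2 difference -0.50, adjusted p = 0.22) and SLC27A4 (-0.34, adjusted p = 0.25). SLC46A3, a lysosomal carrier, followed at 0.24 (adjusted p = 0.33). At an unadjusted p under 0.05, 8.15% of all genes tested were lower and 8.98% higher. In 19 ion carriers the median was 0.03, and the potassium and chloride cotransporter SLC12A7 was the 1 at an unadjusted p under 0.05, at 2.25, 1.33 and 1.31 FPKM in shALKBH3 and 0.665, 0.917 and 0.824 FPKM in NC (log2 difference 0.53, adjusted p = 0.22). Its first shALKBH3 library stood well above the others. SLC12A4, of the same kind, averaged 2.01 ± 1.00 FPKM in shALKBH3 and 3.29 ± 0.283 FPKM in NC (log2 difference -0.57, or -0.26 without shALKBH3 replicate 2). The anion exchanger SLC26A6 averaged 0.60 ± 0.78 FPKM in shALKBH3 and 3.51 ± 2.67 FPKM in NC (SD, n = 3 each), a wide spread within both groups. The 3 genes of no other group had a median of 0.08, and the 5 genes named after a transporter one of -0.19, with the scaffold protein gene SLC9A3R2 the 1 at an unadjusted p under 0.05 (13.1 ± 1.74 FPKM in shALKBH3, 17.2 ± 0.893 FPKM in NC).

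Proteins that work with these carriers were taken from a list of 18 genes, all tested, of which 1 was called higher and 1 lower; 15 of the 18 had a negative log2 difference and the median was -0.14. Over all genes tested 1.28% were called higher and 0.477% lower, and 51.3% were negative. Among genes under 2000 nucleotides, which 11 of the 18 are, 70.3% were negative with a median of -0.13. ATP1B1, the beta subunit of the sodium pump that sets the gradient many carriers use, was at 62.2, 66.1 and 67.8 FPKM in shALKBH3 and 49.1, 49.2 and 47.7 FPKM in NC, and rose by 0.42 (SE 0.068, adjusted p = 0.047). TXNIP, which promotes removal of glucose transporters from the cell surface, was at 102, 96.5 and 91.2 FPKM in shALKBH3 and 128, 131 and 128 FPKM in NC, and fell by 0.42 (SE 0.068, adjusted p = 0.047). The libraries of the 2 groups were apart for both. Both calls were lost without any 1 library, at adjusted p of 0.088 to 0.20 for ATP1B1 and 0.085 to 0.19 for TXNIP, and with quantile normalization, at 0.063 for ATP1B1 and 0.074 for TXNIP.

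Single transcripts gave a result that gene sums do not show. Of 366 listed transcripts of solute carrier genes 233 were tested, and 1 was called higher and 1 lower, where the background over 19698 transcripts is 0.35% higher and 0.122% lower. Both belong to SLC23A2, the sodium-dependent vitamin C carrier, and were singled out after their values were seen. SLC23A2-201 was at 4.85, 5.03 and 4.59 FPKM in shALKBH3 against 0.0194 FPKM in NC replicate 3 and listed at 0 in the others (adjusted p = 0.010). SLC23A2-202 was listed at 0 in all shALKBH3 libraries and was at 4.12, 4.72 and 4.04 FPKM in NC (adjusted p = 0.013). The gene sum was 4.85, 5.03 and 4.59 FPKM in shALKBH3 and 4.12, 4.72 and 4.06 FPKM in NC, which overlap (log2 difference 0.14, adjusted p = 0.52).

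In GENCODE 29 both transcripts have 17 exons, share 16 of them and hold the same coding sequence of 1950 nucleotides. They differ in exon 1, of 94 nucleotides in SLC23A2-201 and 112 in SLC23A2-202, and these lie 8794 bases apart on the minus strand of chromosome 20 (GRCh38). Only fragments that reach exon 1 tell them apart, and how the authors' estimate divided the shared fragments was not tested. Over all genes with at least 2 tested transcripts, 6 of 4881 had transcripts called in both directions.

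Among 52 members with at least 2 tested transcripts, SLC1A5 was the other whose transcripts stood apart in both directions. The 6 of 4881 genes above were counted by calls, and the share of all genes by non-overlap was not computed. Of the 4 tested SLC1A5 transcripts, 1 lay above and 2 below NC in every library, and 1 of those below is given here. SLC1A5-201 was at 21.6, 57.4 and 12.9 FPKM in shALKBH3 and 0.067, 0.0024 and 7.36 FPKM in NC. SLC1A5-203 was at 28.8, 12.3 and 44.0 FPKM in shALKBH3 and 62.4, 62.5 and 74.4 FPKM in NC. Neither transcript passed the test (adjusted p 0.35 and 0.44), and within shALKBH3 the order of the libraries by one transcript was the reverse of that by the other.

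**Figure D4:**
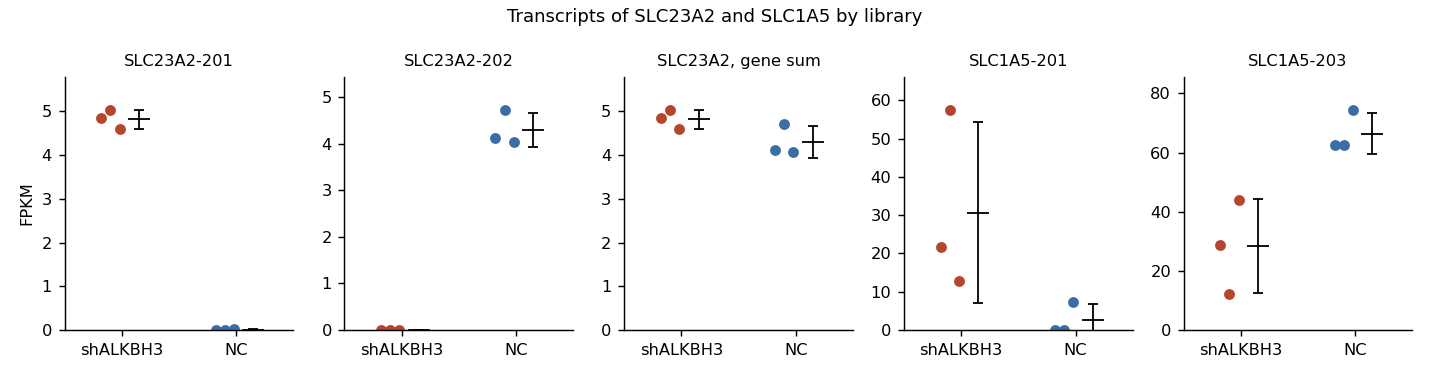
FPKM by library for both transcripts of SLC23A2, their gene sum, and 2 transcripts of SLC1A5, shALKBH3 in red left of NC in blue, with the mean and SD of 3 libraries (bars are clipped at 0). SLC23A2-201 is at 4.59 to 5.03 FPKM in shALKBH3 and SLC23A2-202 at 4.04 to 4.72 FPKM in NC, each at or near 0 in the other group, while the gene sums overlap.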

How the data were processed

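Deposited values are transcript FPKM, per the file headers, in 6 tables of 28900 transcripts. The submitters' processing notes name hg19, HTSeq 0.6.0 and DESeq2 without roles; the aligner, annotation and FPKM tool: not given in the sources used here. In every listed transcript the higher group mean is at least 0.500 FPKM, and values reach down to 1e-06, so whole reads could not be recovered and depth is unknown. The division of fragments among transcripts makes single transcripts less certain than gene sums.

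Identifiers without version were matched to GENCODE 29 (28796 of 28900, 99.6%), used for names, length and GC content, and FPKM were summed per gene. A filter at a mean of 1 FPKM kept 10475 genes for testing and removed 912. The main test was limma 3.58.1 in R 4.3.3 on log2(FPKM + 1) with a variance trend, two-sided, no covariates, Benjamini-Hochberg adjusted over all genes tested, with a threshold of 0.05. Log2 differences are shALKBH3 minus NC and understate the change of low genes. With 3 libraries a group, an exact test of a single gene could not go below 0.1. Promoter windows are from RefSeq, GRCh38.p14. Python 3.11.15, pandas 2.3.3, numpy 2.4.6 and matplotlib 3.10.9 were used.

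Members and gene lists were chosen with earlier results of these data known. Families were grouped by family number, and the substrate of each member was not checked. Listed amino acid carriers are of SLC1, SLC3, SLC6, SLC7, SLC36, SLC38 and SLC43. Sugar carriers are of SLC2, SLC5, SLC37, SLC45 and SLC50, and metal carriers of SLC11, SLC30, SLC31, SLC39 and SLC41. SLC35B to SLC35F and SLCO genes fall outside the symbol rule. Genes were named by rule: every member called, in each of the 4 main groups the 4 with the smallest p and the 4 with the highest mean, in the others the 3 with the smallest p, and the lists given. Of the genes this rule takes, 2 are not reported here. SLC25A1, SLC25A24, SLC25A37, SLC25A39, SLC25A46, SLC25A51, SLC30A1, SLC7A6, SLC9A3R2 and SLC16A1 and the single transcripts were chosen after their values were seen. The alternatives tried were another pseudocount, other filters, 2 other scalings, the most abundant transcript, a length and GC correction, array weights, a replicate block and leaving out each library.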

Additional observations from a re-analysis of the deposited data

How the results depend on the processing

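The count of solute carrier genes called, 2 higher and 0 lower, was the same with a pseudocount of 0.1 or with no filter on low values, and 3 higher and 0 lower with libraries rescaled to the same sum, a setting that moved the median of all genes to 0.07. It was 3 higher and 1 lower with a minimum mean of 5 FPKM and with quantile normalization, 3 and 3 with the length and GC correction, 1 and 0 with the most abundant transcript (SLC23A2), 4 and 4 with array weights, and 1 and 1 over single transcripts, a setting chosen after seeing the data. Over all genes the share called was 1.76% in the main test, 2.53% at a minimum mean of 5 FPKM and 1.71% with quantile normalization. It was 2.42% with the length and GC correction, 1.03% with the most abundant transcript and 4.58% with array weights. Leaving out 1 library gave 0 to 1 higher (the 1 without shALKBH3 replicate 3) and 0 lower. Deviations of same-numbered libraries from their group means correlated at -0.0877, 0.0754 and -0.0116, and those of differently numbered ones at -0.141 to 0.142. The labels do not say whether equal replicate numbers mark pairs, and these correlations cannot decide it. With the replicate block 0 were higher and 0 lower, alone or with the length and GC correction, and 20 of all genes were called against 184 without it. Median differences of amino acid carriers were 0.10 with the same sum and 0.0065 to 0.097 with 1 library left out. Those of sugar carriers were 0.43 at a minimum of 5 FPKM, -0.044 with the length and GC correction with or without the block, and -0.095 to 0.098 with 1 library left out. Those of SLC25 carriers were -0.23 to -0.069 with 1 library left out, and those of metal carriers 0.11 with the same sum and -0.078 with the length and GC correction with or without the block. Over the named genes, 679 of 769 values kept direction and call, 16 newly passed, 45 no longer passed and 29 changed sign. A gene that passed in neither setting counts among those kept, so the 679 do not measure how well calls held. SLC16A4 and SLC41A2 lost their calls without any 1 library and with the most abundant transcript. They also lost them with the replicate block (limma, adjusted p 0.17 and 0.19). The sign changed with the length and GC correction, with or without the block, for SLC30A9 (-0.13), SLC7A11 (-0.24) and SLC5A3 (-0.080). It changed with the most abundant transcript for SLC3A2 (1.74), SLC25A39 (0.0069), SLC38A1 (0.022), SLC2A1 (0.0014) and SLC35A1 (-0.14), and with the same sum for SLC38A1 (0.087), SLC7A1 (0.026) and SLC2A1 (0.069). It changed with quantile normalization for SLC7A11 (-0.026) and with array weights for SLC50A1 (-0.53). With 1 library left out, values on both sides of 0 were found for SLC30A9 (-0.0077 to 0.0996), SLC25A28 (-0.096 to 0.36), SLC38A1 (-0.092 to 0.083), SLC7A11 (-0.089 to 0.091), SLC7A1 (-0.12 to 0.0084), SLC2A1 (-0.0796 to 0.044) and SLC50A1 (-0.23 to 0.74). The cause of these changes was not tested, and without read counts no limit from depth can be given.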

Other observations

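The nucleotide sugar and organic anion carriers of the SLC35B to SLC35F and SLCO families, which the symbol rule leaves out, had 18 tested genes. None was called by limma, 3 were lower at an unadjusted p under 0.05, and the median log2 difference of the 18 was -0.06. Of all genes tested, 1.76% were called and 8.15% were lower at that p, with a median of -0.01. Genes that store or bind the metals carried by the SLC39 and SLC30 proteins were measured beside them. MT1E, a metallothionein that binds zinc and copper, was at 377, 336 and 356 FPKM in shALKBH3 and 437, 391 and 486 FPKM in NC, without overlap (log2 difference -0.29, adjusted p = 0.22). MT2A overlapped, at 840 ± 63.4 FPKM in shALKBH3 and 1009 ± 126 FPKM in NC (SD, n = 3 each). The carrier of pyruvate into mitochondria is not a solute carrier by symbol, and its subunit MPC2 was at 32.4, 27.5 and 38.4 FPKM in shALKBH3 and 42.0, 39.4 and 52.6 FPKM in NC, apart in every library (log2 difference -0.44, adjusted p = 0.25), while MPC1 overlapped.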
